A study of Mus musculus with 35 samples.

Results

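The enzymes that attach ubiquitin to proteins and take it off again were followed in side population (SP) stem cells and CD8 T lymphocytes from mouse marrow. They were taken by symbol, as every gene whose name in the array annotation begins with Ube2, with Uch, or with Uba or Usp and a digit, without 3 named exceptions. This gave 51 of the 8251 genes that had a probe set of their own. Of these, 18 were represented by several probe sets, and the probe set with the highest mean log2 level over the 35 arrays was kept for each gene. All marrow came from C57Bl/6 mice (CD45.1, 7 to 9 weeks of age), labelled male except for the USP samples, whose labels give no sex. The labels name no treatment. SP cells efflux the dye Hoechst, and the sort took those carrying Sca-1 and lacking Gr-1. The 3 LSP samples (A, B and M) came from the lower part of the SP tail, the 3 USP samples (N, O and Z) from its upper part, and the 3 samples of CD8 cells (B, C and D) were positive for CD3 and CD8. Each of these was a pool of 4 amplifications of 10 cells, run on 2 arrays whose levels were averaged. A second experiment used 12 single cells (SC, A to L) from the tip of the SP tail and 5 single-cell equivalents (SCE, A to E), aliquots of 1 lysate of 40 SP cells, with 1 array each. An SCE therefore carries the spread of the amplification and the array but not that between cells. Each experiment drew on the marrow of 1 mouse. Which samples came from the same animal is not given, and the p-values therefore measure only the spread between these samples, part of which may be technical.

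Ubiquitin is passed along a cascade. An activating enzyme (E1) charges it, a conjugating enzyme (E2) carries it, and a ligase (E3) directs it to a target protein, where single ubiquitins or chains mark the protein for the proteasome or change its activity. Deubiquitinases of the UCH and USP families remove it. Ubiquitin-like proteins such as NEDD8 and ISG15 have E1 and E2 enzymes of their own, and the turnover of cell cycle and signalling proteins by this route is known to matter for blood stem cells. Of the 51 genes, 3 encode E1 enzymes, 14 E2 enzymes of ubiquitin, 3 E2 enzymes of the cell cycle and DNA repair, 2 E2 enzymes of ubiquitin-like proteins, 2 E2 variants, 2 UCH and 25 USP deubiquitinases.

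Between SP and CD8 cells 2 of these genes passed the test, Uba7 and Ube2h, and their promoters are shown here because the main comparison turns on them. Both are from RefSeq on GRCm38.p6, cover 300 bases that end 50 bases into the annotated transcript, and are written 5′ to 3′ on the strand of the gene. The promoter of Uba7 lies on the plus strand at chr9:107975317-107975616, and that of Ube2h on the minus strand at chr6:30304490-30304789. RefSeq lists a second start of Ube2h further downstream, which is not printed. Capitals mark the letters AANNGAAA, the core of the sites that interferon regulatory factors recognise, found on either strand.
Uba7: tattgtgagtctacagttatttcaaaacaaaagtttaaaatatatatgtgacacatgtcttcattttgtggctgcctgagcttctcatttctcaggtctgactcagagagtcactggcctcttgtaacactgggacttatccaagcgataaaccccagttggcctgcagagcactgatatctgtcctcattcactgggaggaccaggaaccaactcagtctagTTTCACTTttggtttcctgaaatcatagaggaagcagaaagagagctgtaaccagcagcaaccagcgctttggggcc
Ube2h: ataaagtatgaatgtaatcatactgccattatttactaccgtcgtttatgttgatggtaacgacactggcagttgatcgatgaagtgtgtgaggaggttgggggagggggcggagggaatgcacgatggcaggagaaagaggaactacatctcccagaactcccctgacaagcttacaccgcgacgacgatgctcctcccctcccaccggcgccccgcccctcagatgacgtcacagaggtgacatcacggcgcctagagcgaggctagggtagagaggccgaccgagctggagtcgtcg
The Uba7 promoter held these letters in a single place, on the reverse strand beginning at position -27 from the start, and that of Ube2h held none. The letters are common: 23.9% of the 32851 RefSeq promoters of the same length held them. The longer core, GAAA repeated with NN between, was in neither promoter and in 3.44% of all. A match is a description of letters and not of a bound site.

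The deposited intensities are linear and were scaled by array. On the ten-cell arrays log2 levels under 7 were set to a floor of 7, and on single-cell and SCE arrays a gene was called detected at a log2 level of 9 or more. On 9 of the 12 SP arrays part of the values were negative, whereas all 6 CD8 arrays held positive values alone, so population and kind of values cannot be fully told apart between SP and CD8 cells. The labels were checked against cell type markers. Of 7 T cell markers on the array all were above the floor in some CD8 sample and 6 were called lower in SP cells; Zap70, at the floor in CD8 sample B, was not (limma adjusted p = 0.487). Of the 7, 3 exceeded the floor in an LSP sample, all in sample M (Cd3e at 8.59, Cd2 at 7.33 and Zap70 at 7.33), and 0 in a USP sample. Cd3d was at 11.79 to 12.56 in the CD8 samples and at the floor in the SP samples. Of 8 SP markers 6 passed the test as higher in SP cells, while Kit, which stem cells are known to carry, stayed at the floor in all 9 samples. The paper also reports Kit as undetected on almost every single-cell array, while its Q-PCR found the transcript in part of the single stem cells. CD8 sample B also held the B cell gene Ms4a1 at 12.78, at the floor in the other 8 samples, and the heavy chain gene Ighm was at 10.18 to 10.37 in the 3 CD8 samples. Cd79b was at 10.12 and 10.94 in CD8 samples B and C, at the floor in CD8 sample D, and up to 9.85 in SP samples. The summed level of 5 B cell markers was 10.84 to 13.31 in CD8 samples, 9.32 to 10.06 in LSP and 9.41 to 10.83 in USP samples, and Pax5 was at the floor throughout. The granulocyte gene S100a8 was higher in SP than in CD8 samples by 3.77 (log2; SE 0.48, limma adjusted p = 0.00572), and the summed level of 8 granulocyte markers was 10.86 to 12.33 in LSP, 11.74 to 13.15 in USP and 10.00 to 10.25 in CD8 samples. What part these cells have in the results was not tested. In samples of several cells, fewer cells of a type and less RNA per cell cannot be told apart.

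In the ten-cell samples the kept probe set exceeded the floor somewhere for 37 of the 51 genes, and these were tested. For the other 14 it stayed at the floor on all 18 arrays. Of those 14, Usp2, Usp19 and Ube2v2 have another probe set that exceeded the floor, up to 10.03, 9.69 and 8.02. Among all probe sets 54.9% exceeded the floor. Such shares, here and below, include the weaker probe sets of a gene. Each enzyme entered by its highest, which favours a larger share among the enzymes. The 14 at the floor included 9 of the 25 USP genes, and also Uba1y, the Y-linked copy of the main ubiquitin E1, and Ube2c and Ube2t, E2 enzymes of mitosis and of DNA crosslink repair. In all 9 samples, 10 genes were above the floor: Uba7, Ube2b, Ube2d3, Ube2e1, Ube2g1, Ube2r2, Ube2v1, Usp1, Usp4 and Usp48. Among all probe sets this share was 11.4%. The E2 of ubiquitin gave 5 of these genes out of 14. The levels of different probe sets cannot be set against each other, so no order among the genes is given.

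**Figure D1:**
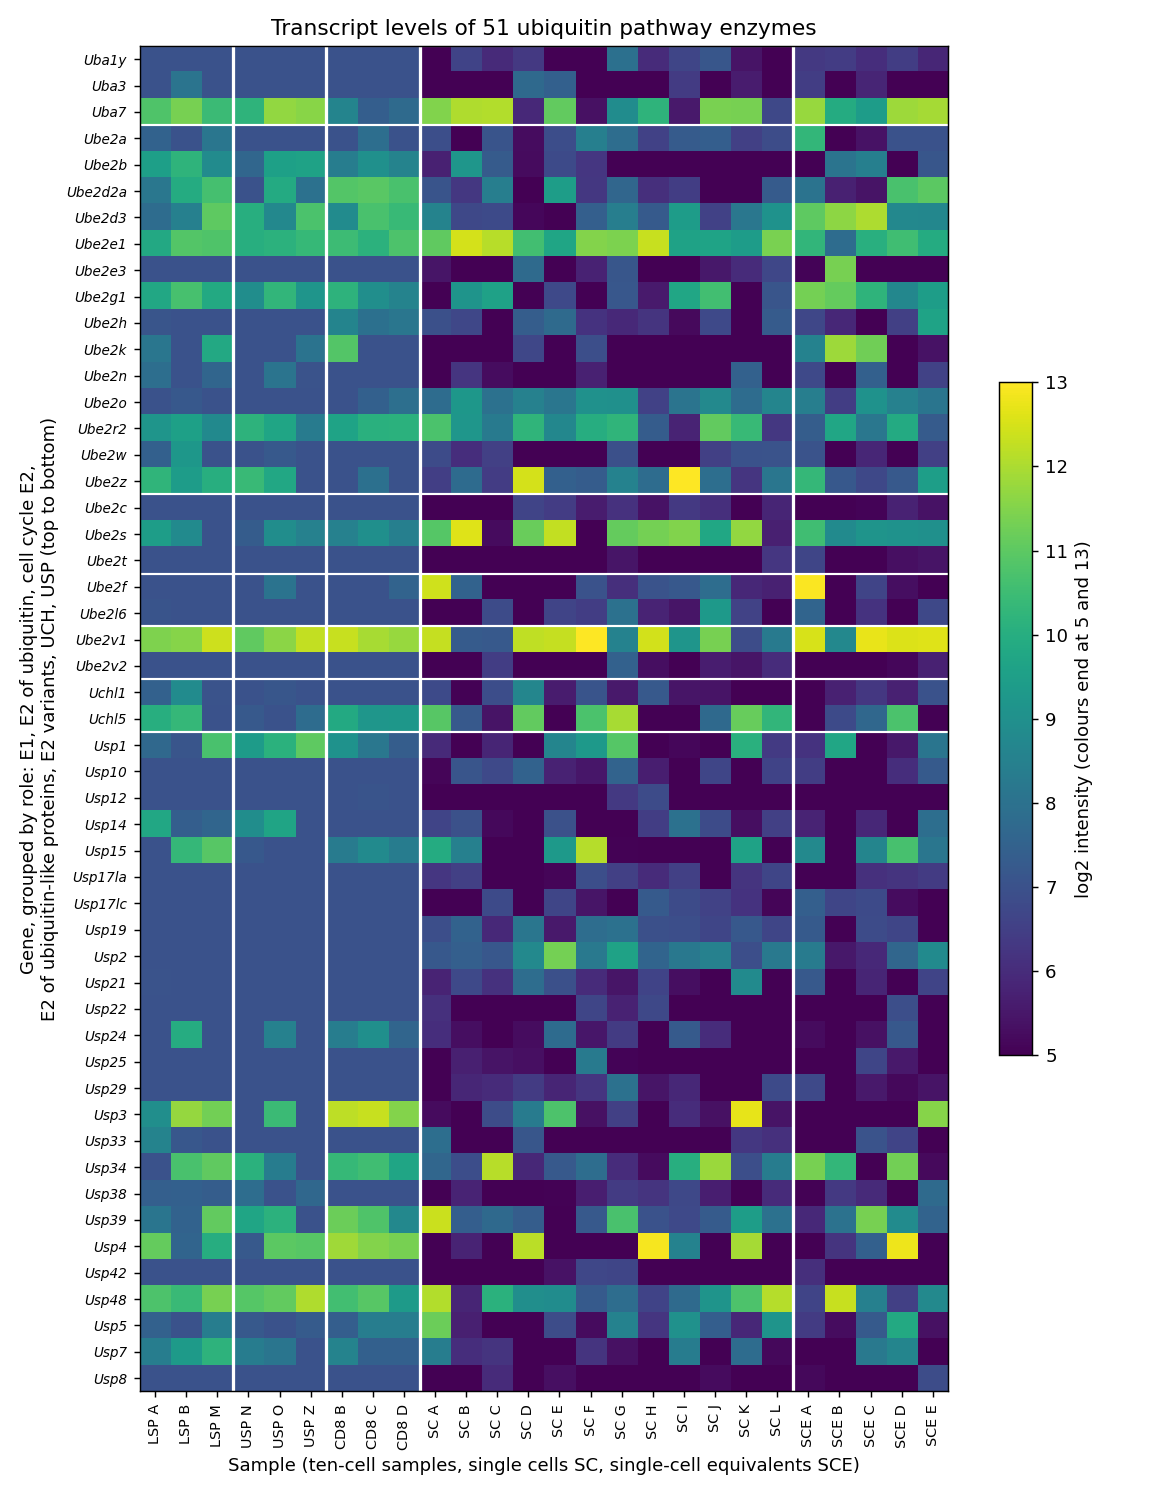
Colour shows the log2 intensity of each of the 51 genes (rows, grouped by role) in the 9 ten-cell samples, 12 single cells and 5 SCE (columns); ten-cell values have a floor of 7. Uba7 is bright in the 6 SP samples and dim in the 3 CD8 samples, the kept probe sets of 14 genes stay at the floor in every ten-cell sample, and single cells differ from each other more than the ten-cell samples do in genes such as Ube2v1 and Usp4.

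The E1 enzyme Uba7, which charges the interferon-induced modifier ISG15, was higher in SP than in CD8 cells. Its level was 10.79, 11.37 and 10.44 in LSP samples A, B and M, 10.20, 11.71 and 11.58 in USP samples N, O and Z, and 8.60, 7.39 and 7.77 in CD8 samples B, C and D. All 6 SP samples lay above all 3 CD8 samples. The SP mean was 11.02 ± 0.63 (SD, n = 6) and the CD8 mean 7.92 ± 0.62 (SD, n = 3), a difference of 3.10 on the log2 scale (SE 0.44), or 8.55-fold, with a limma adjusted p of 0.00872. Between LSP and USP the difference in Uba7 was -0.30 (SE 0.51, limma adjusted p = 0.973). On arrays without negative values, which leaves 1 LSP and 1 USP sample, Uba7 was higher in SP cells by 3.51. Without CD8 sample B, where Ms4a1 was high, Uba7 was higher by 3.44 (limma adjusted p = 0.0152). CD8 samples C and D, with Ighm at 10.30 and 10.37, stayed in that fit, so it does not remove all B cell RNA.

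The partners of Uba7 were at or near the floor. Ube2l6, the E2 of the same ISG15 route, was at the floor in 8 of the 9 ten-cell samples and at 7.09 in LSP sample A. Isg15 itself was at the floor in all 9 samples and reached the detection level only in single cell A, at 10.00. The other E1 genes were low as well. Uba3, the catalytic subunit of the NEDD8 E1, was above the floor in LSP sample B alone, at 8.07, and Uba1y in none.

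Ube2h, an E2 that works with the CTLH ligase complex, was lower in SP than in CD8 cells. It was at 8.60, 7.96 and 8.14 in CD8 samples B, C and D, at 7.11 in LSP sample A and at the floor of 7 in the other 5 SP samples. The groups did not overlap. The fitted difference was -1.22 (log2; SE 0.14), or 2.32-fold, with a limma adjusted p of 0.00365, and since most SP values lie at the floor this understates the fold. The call depends on the floor: with a floor of 8 the difference was -0.25 (limma adjusted p = 0.445), and on arrays without negative values it was -1.23 (limma adjusted p = 0.0923). Without CD8 sample B, Ube2h differed by -1.03 (limma adjusted p = 0.00371). A second probe set of Ube2h did not exceed the floor in any CD8 sample and differed by 0.01 (SE 0.07), so the probe sets of this gene disagree.

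Of the 37 genes tested, these were the only calls, 1 higher and 1 lower. Among all 6823 probe sets tested 2.83% were called higher and 3.0% lower, so the share of calls among the enzymes was near that of all genes. At an unadjusted p under 0.05, 3 were higher and 3 lower, against 9.13% and 9.32% of all probe sets. SP and CD8 samples did not overlap in 4 of the 37 genes, Uba7, Ube2h, Ube2d2a and Usp4, while among all probe sets tested they did not overlap in 11.3%. The median difference was -0.02 over the 37 genes and 0.04 over all probe sets. By role it was -0.15 over the 13 E2 of ubiquitin, with 5 above and 8 below 0, and -0.01 over the 16 USP genes, with 8 above and 8 below 0.

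The other E2 genes with the smallest p-values missed the threshold. Ube2z, an E2 that takes ubiquitin from the alternative E1 Uba6, was at 10.23, 9.43 and 10.02 in the LSP samples, at 10.44, 9.81 and 7 in USP samples N, O and Z, and at 7, 7.94 and 7 in the CD8 samples. The difference was 2.17 (SE 0.74, limma adjusted p = 0.172). USP sample Z, which was at the floor, set this result: without it the difference in Ube2z was 2.69 (limma adjusted p = 0.00774). Sample Z ran against the difference, so leaving it out favours a smaller p by construction and adds no support. A second probe set of Ube2z was at the floor in all 9 samples. Ube2d2a, one of the UBE2D enzymes that serve many ligases, was at 8.16, 9.94 and 10.65 in the LSP samples, at 7, 9.89 and 7.99 in the USP samples, and at 10.86, 10.97 and 10.69 in the CD8 samples. The CD8 samples were all higher and lay close together, and the difference in Ube2d2a was -1.90 (SE 0.75, limma adjusted p = 0.229). Its second probe set gave -0.98 (SE 0.22, limma adjusted p = 0.0511). Ube2o, a large enzyme with both E2 and E3 activity, differed by -0.42 (SE 0.19, limma adjusted p = 0.317) with most samples at the floor, and its other probe sets gave 0.13 (SE 0.14) and 0.36 (SE 0.25), the opposite direction.

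Among the deubiquitinases, none passed the test between SP and CD8 cells (limma), and 2 of 16 USP genes had an unadjusted p under 0.05. Usp3, which takes ubiquitin off histones, was at 12.19, 12.34 and 11.51 in the CD8 samples, at 8.95, 11.73 and 11.31 in the LSP samples, and at 7, 10.46 and 7 in the USP samples. On this kept probe set the CD8 samples were uniform and the SP samples spread from the floor to 11.73. Its difference was -2.61 (SE 0.96, limma adjusted p = 0.203), and the other probe sets of Usp3 gave -2.51 (SE 1.25) and -1.97 (SE 1.11). On those the CD8 samples were not uniform, running from the floor to 11.84 and from 8.19 to 11.60. The kept probe set may share sequence with other transcripts by its design. Usp4 was at 11.86, 11.52 and 11.36 in the CD8 samples and between 7.22 and 11.11 in the SP samples, with a difference of -1.95 (SE 1.07, limma adjusted p = 0.426). Usp38 was above the floor in 5 of the 6 SP samples, from 7.36 to 7.85, and at the floor in all CD8 samples, a difference of 0.46 (SE 0.18, limma adjusted p = 0.242). Without USP sample O, the SP sample at the floor, Usp38 differed by 0.58 (limma adjusted p = 0.0207). As sample O ran against the difference, this smaller p follows largely from the choice and adds no support. Its second probe set gave 0.19 (SE 0.24). Usp14, a deubiquitinase bound to the proteasome, was also at the floor in all CD8 samples and reached 9.81 in LSP sample A, with a difference of 1.404 (SE 0.73, limma adjusted p = 0.396), whereas its second probe set gave -0.61 (SE 0.77). Usp5, which takes apart free ubiquitin chains, differed by -0.66 (SE 0.36, limma adjusted p = 0.423) and Usp48 by 0.80 (SE 0.43, limma adjusted p = 0.424).

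**Figure D2:**
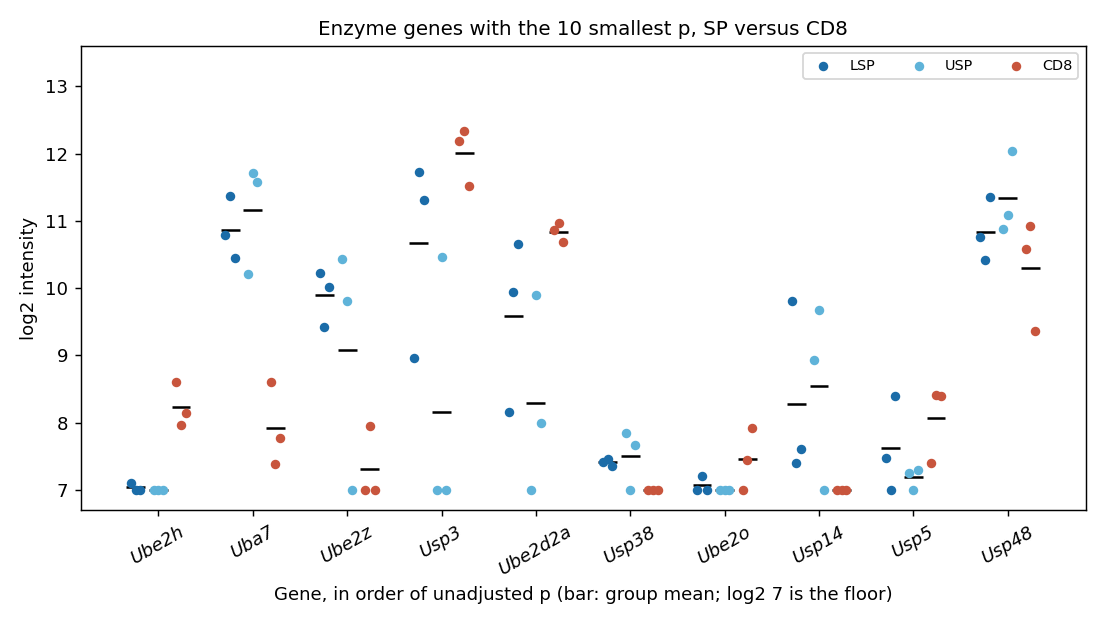
Points show the log2 intensity of each LSP, USP and CD8 sample (3 each, duplicate arrays averaged) and bars the group means, for the 10 enzyme genes with the smallest unadjusted p between SP and CD8 cells; the floor is 7. In Uba7 the 6 SP samples sit at 10.20 or more and the CD8 samples at 8.60 or less. USP samples at the floor widen the spread in Ube2z (sample Z) and in Usp3 (samples N and Z).

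Genes of the pathway outside these families were counted in the same way. Of 54 tested E1 partners, ubiquitin and ubiquitin-like proteins, other deubiquitinases and E3 ligases, 1 was called higher and 2 lower in SP cells. The E3 ligase Nedd4 was higher by 2.39 (SE 0.18, limma adjusted p = 0.000396), at 9.14 to 10.03 in SP samples and at or just above the floor, up to 7.21, in CD8 samples. Its relative Nedd4l differed by -1.19 (SE 0.10, limma adjusted p = 0.000559). The deubiquitinase Otud5 differed by -3.01 (SE 0.50, limma adjusted p = 0.0168). The probe sets of Nedd4, Nedd4l and Otud5 are of kinds that may cross-hybridise. So are those kept for Ube2c, Ube2v2, Ube2w, Usp14 and Usp25. The median difference over these 54 genes was 0.22.

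Between LSP and USP cells, whose dye efflux differs, no gene of the families passed the test. Of the 37 genes, 0 were called by limma, against 0.0293% of all probe sets called higher and 0.0733% called lower in LSP cells. At an unadjusted p under 0.05, 2 were higher in LSP cells and 0 lower, against 3.18% and 2.81% of all probe sets. Differences were above 0 in 25 of the 37 genes and below 0 in 11, with a median of 0.17. Among all probe sets 49.2% were above 0 and 43.4% below, with a median of 0. Erythroid RNA ran with this comparison: the summed level of 5 erythroid markers was 9.54 to 10.13 in LSP and 11.48 to 11.74 in USP samples, and its part in the differences was not tested.

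The 2 genes with an unadjusted p under 0.05 were deubiquitinases. Usp7, which acts on Mdm2 and p53, was at 8.40, 9.36 and 10.18 in LSP samples A, B and M and at 8.35, 8.11 and 7 in USP samples N, O and Z. These samples did not overlap, though LSP A and USP N were nearly equal, and Usp7 was the only such gene of the 37, against 5.98% of all probe sets. The difference in Usp7 was 1.49 (SE 0.58, limma adjusted p = 0.816), and its second probe set gave 0.15 (SE 0.14). Usp15 was at 7, 10.32 and 10.93 in the LSP samples and at 7.21, 7 and 7 in the USP samples, a difference of 2.34 (SE 0.94, limma adjusted p = 0.819). LSP sample A, at the floor, set this value, and without it the difference in Usp15 was 3.55 (limma adjusted p = 0.00866). Here too the sample left out was the one against the difference, so the smaller p adds no support. A second probe set of Usp15 was at the floor in all 9 samples.

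Uchl5, like Usp14 a proteasome-bound deubiquitinase, was at 10.02, 10.33 and 7 in LSP samples A, B and M and at 7.24, 7 and 7.83 in the USP samples. Only LSP sample M overlapped with the USP samples. The difference in Uchl5 was 1.76 (SE 0.85, limma adjusted p = 0.876), and without LSP sample M it was 2.82 (limma adjusted p = 0.0373). Removing the sample that ran against the difference favours a smaller p by construction and adds no support. Its family member Uchl1, best known from neurons, was highest in LSP sample B at 8.87 and differed by 0.75 (SE 0.43, limma adjusted p = 0.876). Usp3 differed by 2.51 (SE 1.11, limma adjusted p = 0.84), but its other probe sets gave -1.12 (SE 1.45) and -0.99 (SE 1.28), the opposite direction. Usp1, which acts on PCNA and FANCD2 in DNA repair, ran the other way, at 7.70, 7.12 and 10.71 in the LSP samples and at 9.41, 10.11 and 11.003 in the USP samples, a difference of -1.66 (SE 0.99, limma adjusted p = 0.876).

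Among the E2 enzymes, 11 of 13 serving ubiquitin had a difference above 0 between LSP and USP cells, with a median of 0.55 and a range from -0.73 to 1.29. Ube2d2a had a difference of 1.29 (SE 0.86; its second probe set gave 0.92, SE 0.25, limma adjusted p = 0.503), Ube2w, which modifies the amino terminus of proteins, of 0.82 (SE 0.53), and Ube2a, a RAD6 enzyme, of 0.55 (SE 0.34). The limma adjusted p of the kept probe sets was 0.876 for each of the 3. Usp33 differed by 0.58 (SE 0.38) with a limma adjusted p of 0.876, and only LSP samples A and B were above the floor, at 8.57 and 7.18. Of the 54 other pathway genes 0 were called between LSP and USP cells.

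**Figure D3:**
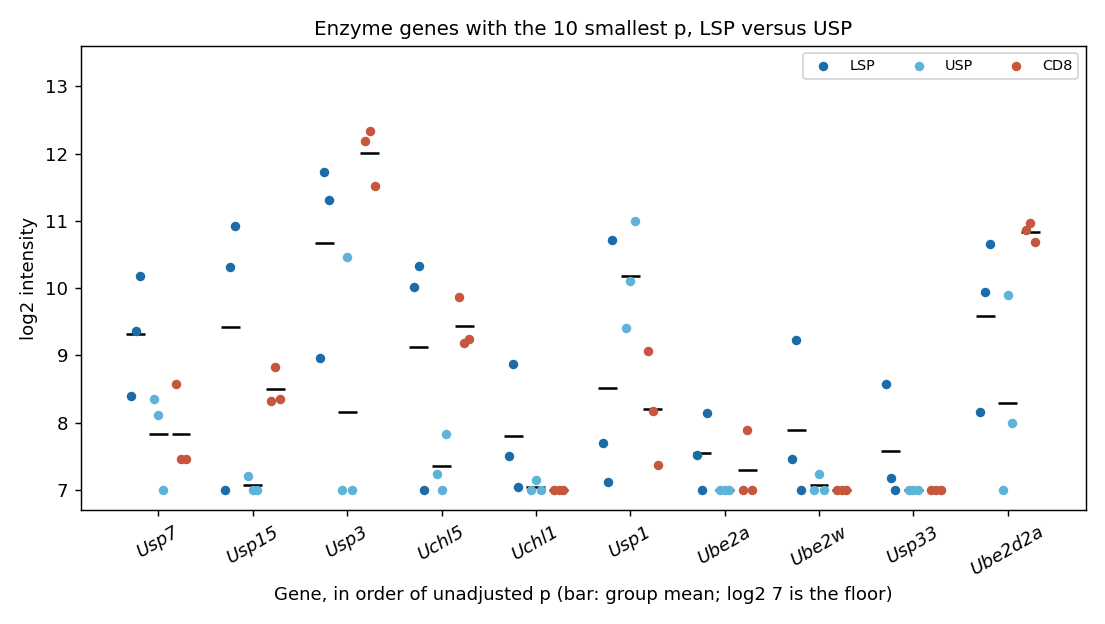
Points show the log2 intensity of each LSP, USP and CD8 sample (3 each) and bars the group means, for the 10 enzyme genes with the smallest unadjusted p between LSP and USP cells; the floor is 7. In Usp7 the LSP samples, from 8.40, lie just above the USP samples, up to 8.35, and in Usp15 and Uchl5 one LSP sample lies at the floor.

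Of the 51 genes, 23 were detected in at least 1 of the 12 single cells, against 33.9% of all probe sets, and between 5 and 11 in each cell. Per cell this was 9.80% to 21.57% of the enzymes, against 9.61% to 11.99% of all probe sets. The enzymes entered by their highest probe set and the share over all takes every probe set, so these are not like for like. In some ten-cell sample, 23 genes reached the same log2 level of 9, and the share of all probe sets that did so was not counted. The SCE arrays detected 9 to 11 each, or 17.65% to 21.57% of the enzymes, against 10.88% to 12.58% of all probe sets. Over the 5 arrays it was 24 genes, against 3139 of all 12422 probe sets. Ube2a, Ube2e3, Ube2h and Ube2k reached the detection level in an SCE and in no cell. Ube2b, Ube2l6 and Usp2 reached it in a cell and in no SCE. A level under the detection level does not show that the transcript was absent from the cell.

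Ube2e1, an E2 of the UBE2E group, was the only gene detected in all 12 cells, which 1.48% of all probe sets were. Its level ran from 9.41 to 12.47 over the cells, with a median of 11.22, and it was 10.27, 7.84, 10.03, 10.55 and 9.92 in SCE A to E. The ten-cell samples lay between 9.81 and 10.85. The difference between single cells and SCE in Ube2e1 was 1.22 (SE 0.66, limma adjusted p = 0.864). Its probe set is of a kind that may be shared between related genes.

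Uba7 was the only gene of the 51 detected in all 5 SCE, as 3.55% of all probe sets were, and it was detected in 7 of 12 cells. In the SCE it was at 11.77, 9.92, 9.44, 11.83 and 11.93. Cells A, B, C, E, H, J and K had 10.22 to 12.06, cell G had 8.88, and cells D, F, I and L had 5.36 to 6.73. The 4 low cells and cell G lay under every SCE. The mean absolute deviation from the median was 2.23 in cells and 0.88 in SCE (exact permutation p = 0.148, adjusted p = 0.631, one-sided), and the maximum likelihood share of the single-cell variance beyond the technical part, the biological share, was 0.829.

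Ube2s, the E2 that extends ubiquitin chains for the anaphase-promoting complex, was detected in 9 of 12 cells. Those 9 cells had 9.76 to 12.61, and cells C, F and L had 5.24, 5.02 and 5.71. The SCE had 10.56, 8.82, 9.15, 9.08 and 9.02, between both sets of cells except for SCE A. The mean absolute deviation was 1.90 in cells and 0.37 in SCE (exact permutation p = 0.0171, adjusted p = 0.464, one-sided). Leaving out 1 SCE gave an unadjusted p for Ube2s from 0.0022 without SCE A to 0.105 without SCE D. The biological share was 0.948, just under the 0.95 set for naming genes by it, which no gene of the 51 reached with detection in 4 to 11 cells. Its partner Ube2c, which starts those chains, and Ube2t were detected in no cell. In the ten-cell samples Ube2s was at 7 to 9.45 in SP and 8.44 to 8.996 in CD8 cells (difference -0.31, SE 0.59, limma adjusted p = 0.811), while of 12 proliferation markers tested 2 were called higher in SP cells, Top2a by 2.74 (SE 0.45, limma adjusted p = 0.0167) and Pcna by 2.58 (SE 0.37, limma adjusted p = 0.00949), and 0 lower. The median over the 12 was 0.54, and Ccna2 had the lowest difference, -1.22 (SE 0.49, limma adjusted p = 0.24).

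Ube2v1, an inactive E2 variant that pairs with Ube2n, was detected in 7 of 12 cells. Cells ran from 6.87 to 13.86 with a median of 10.26. The SCE were at 12.51, 8.73, 12.73, 12.57 and 12.62, so that all but SCE B lay together, and the ten-cell samples lay between 11.04 and 12.38. The mean absolute deviation was 2.26 in cells and 0.82 in SCE (exact permutation p = 0.0752, adjusted p = 0.545, one-sided) and the biological share 0.478. SCE B decides both: without it the share of Ube2v1 was at the upper end of its range, near 1 (exact permutation p = 0.0154, adjusted p = 0.391), and without any of the others it was 0.357 to 0.393. Its catalytic partner Ube2n was detected in no cell, at 2.58 to 7.49.

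Ube2g1, an E2 of protein quality control, was detected in 4 cells, B, C, I and J, at 9.14 to 10.56, and the other 8 cells lay at 2.79 to 7.16. The SCE were at 11.33, 11.12, 10.20, 8.69 and 9.45. Its mean was 6.54 ± 2.85 (SD, n = 12) in cells and 10.16 ± 1.11 (SD, n = 5) in SCE, a difference of -3.62 (SE 1.25, limma adjusted p = 0.627). Its biological share was 0.92 with all arrays but 0 to 0.357 when any 1 SCE was left out. With 1 mean for cells and SCE the estimate for Ube2g1 is therefore not stable. With separate means and all arrays it was 0.867. Ube2d3, a second UBE2D enzyme, showed the same direction, with a median of 7.34 in cells, from 3.89 to 9.41, and 11.02, 11.63, 12.02, 8.74 and 8.70 in the SCE. The difference in Ube2d3 was -3.14 (SE 0.86, limma adjusted p = 0.381). Ube2k was at 2.70 to 6.93 in the cells, all under the detection level, while SCE B and C reached 11.82 and 11.25, and the difference in Ube2k was -3.39 (SE 1.18, limma adjusted p = 0.634). The second probe sets of Ube2d3 and Ube2k were under the detection level in every cell and SCE.

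These 3 E2 genes were the only ones of 27 tested with an unadjusted p under 0.05 between single cells and SCE, all lower in cells, against 3.93% of all 4659 probe sets tested, and 1.76% were higher. Next by p came Ube2e1, given above, which ran higher in cells, and then Ube2d2a, with a difference of -1.59 (SE 0.98), Ube2v1, with -1.67 (SE 1.17), Usp2, with 1.02 (SE 0.74), Uba7, with -1.64 (SE 1.201), Ube2b, with -1.13 (SE 0.92), and Usp15, with -1.36 (SE 1.53), and their limma adjusted p ran from 0.864 to 0.92. By limma 0 of the 27 were called, against 0.0429% of all probe sets called lower and 0 higher. The SCE lysate also held more erythroid RNA than the cells. Hba-a1 was at 11.46 to 13.38 in the SCE and at 5.64 to 10.39 in the cells, a difference of -4.51 (SE 0.75, limma adjusted p = 0.0189). The summed level of 5 erythroid markers was 7.79 to 10.80 in cells and 11.82 to 13.51 in SCE. The part of these cells in the E2 differences was not tested.

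**Figure D4:**
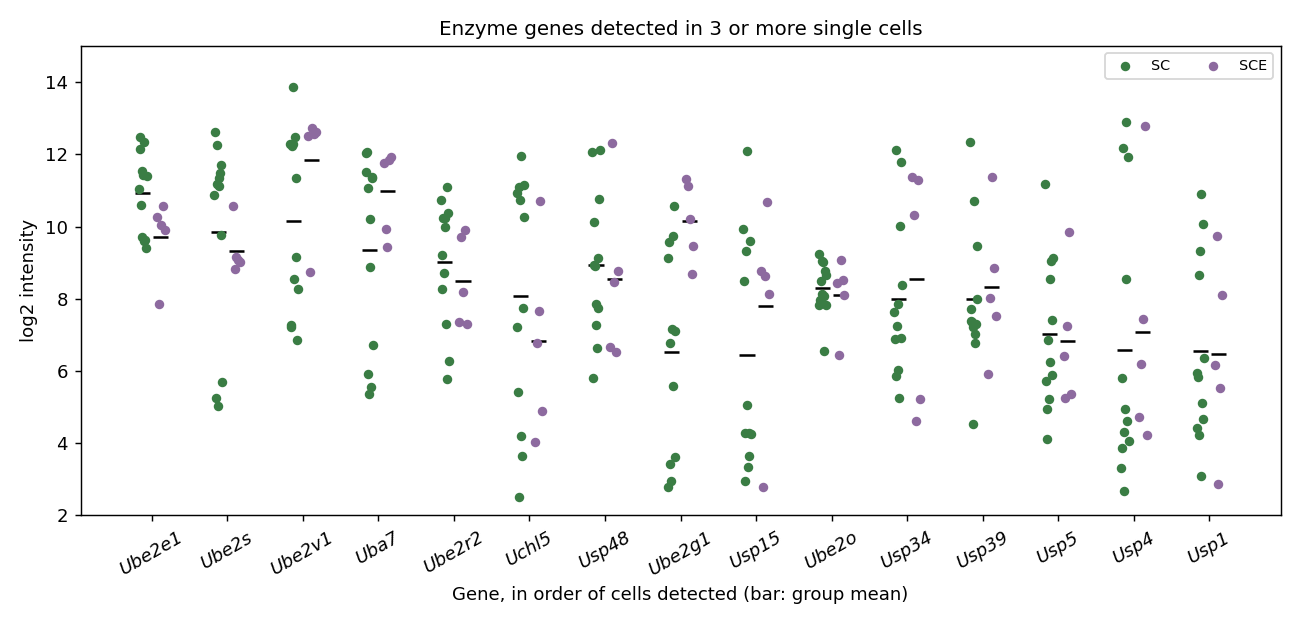
Points show the log2 intensity in each of 12 single cells and 5 SCE and bars the group means, for the enzyme genes detected (log2 9 or more) in 3 or more cells, in order of the number of cells. Ube2e1 is above 9 in every cell, and Ube2s splits into high and low cells. Uba7 has high and low cells with cell G between them, at 8.88. Ube2g1 lies higher in the SCE than in most cells.

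Of the 2 UCH and 25 USP genes, Uchl5 and 9 USP genes were detected in at least 1 cell. Uchl5 was detected in 6 cells, at 10.25 to 11.97, and was as low as 2.51 in cell E, while 4 of the 5 SCE lay at 4.03 to 7.67 and SCE D at 10.72. Usp4 was detected in cells D, H and K at 12.18, 12.88 and 11.93, the other 9 cells lay at 2.68 to 8.55, and SCE D was at 12.79. Usp15 was detected in 4 cells and Usp48 in 5, the latter up to 12.12 in cell L. In Usp48 the SCE were as spread as the cells, from 6.53 to 12.32, and its biological share was 0. This rests on SCE B, at 12.32, since without it the share of Usp48 was 0.631, with a mean absolute deviation of 1.01 in SCE and 1.58 in cells. Usp7, which differed by 1.49 between LSP and USP cells, was detected in no cell, and Usp2 reached 11.33 in cell E though its kept probe set was at the floor in all ten-cell samples.

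Over the 23 genes detected in single cells, the spread exceeded that of the SCE in 14, against 74.3% of all 4215 probe sets tested. Both sets were admitted by detection in a cell, with no such condition on the SCE. This favours a larger spread and biological share in cells. The exact permutation test called 0 of the 23, as it called 0 of all probe sets, and Ube2s was the 1 gene with an unadjusted p under 0.05, against 9.25% of all. The smallest exact permutation p was 0.000162, the lowest that 6188 assignments can give. After adjustment over 4215 probe sets a call needs many of them near that value, so these counts of 0 decide little about spread. The biological share was 0.5 or more in 6 of the 23 genes (Ube2s, Ube2g1, Uba7, Ube2l6, Ube2r2 and Ube2z), against 41.6% of all probe sets, and its median was 0.124 against 0.355. These shares depend on single SCE arrays. With each SCE left out in turn, Ube2s (0.935 to 0.998) and Uba7 (0.794 to 0.899) stayed at 0.5 or more each time. Ube2l6, Ube2r2 and Ube2z fell just under it without 1 or 2 of the arrays. Ube2g1 was under it each time, though at 0.867 with all arrays and separate means. The median over the genes ran from 0 without SCE D or SCE E to 0.301 without SCE B. Ube2l6 and Ube2z were detected in 1 and 2 cells, so that their shares rest on few values above the detection level. Ube2r2, an E2 of the cullin ligases, was detected in 7 cells, from 9.21 to 11.08, with a share of 0.546.

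**Figure D5:**
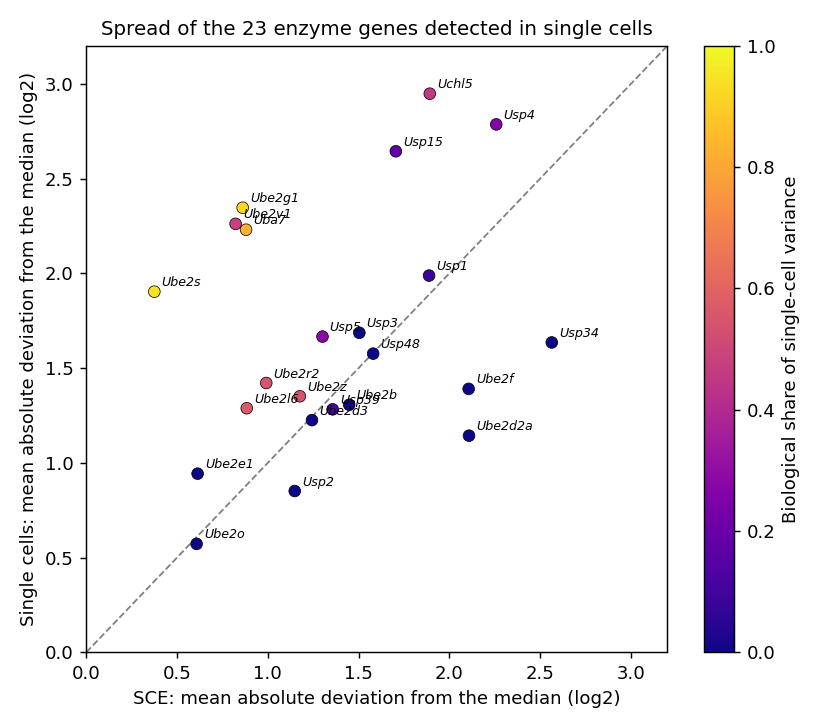
Each point is 1 of the 23 genes detected in single cells, with its mean absolute deviation from the median among the 5 SCE on the horizontal and among the 12 cells on the vertical axis (both log2), coloured by the biological share; the dashed line marks equal spread. Ube2s lies farthest above the line for its SCE spread (1.90 against 0.37), and Usp34, Ube2f and Ube2d2a are among the genes below it.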

How the data were processed

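Transcripts were amplified by global single-cell RT-PCR, which favours the 3′ end of messages, and hybridised to Affymetrix MG-U74Av2 arrays. The authors deposited intensities on a linear scale, with trimmed means of 242.3 to 248.1 over the arrays. The methods describe probe intensities collected with Microarray Suite 5.0 and RMA levels on a log2 scale, which the deposited values are not; how they were summarised is not given in the sources used here. The table lists 12488 probe sets; without its 66 controls 12422 remain, of which 10833 carry 1 gene symbol; all 51 symbols matched RefSeq. The number of arrays limits the precision.

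Log2 levels under 7 were set to 7 on ten-cell arrays and duplicate arrays were averaged. Probe sets that exceeded the floor on any of the 18 arrays entered a model with a mean for LSP, USP and CD8 each (limma 3.58.1, R 4.3.3). It gave the contrast of SP, taken as the average of both SP groups, with CD8, and that of LSP with USP. Single cells and SCE were compared without a floor, over probe sets at log2 9 or more on at least 1 array. Limma's p-values were two-sided. Benjamini-Hochberg adjustment ran over every probe set in a test, with calls under 0.05. Spread was compared by a one-sided exact permutation test over all 6188 assignments of the 17 arrays. Values were not centred by group first, so a difference in mean between cells and SCE also enters its p-value. The biological share was fitted by maximum likelihood with 1 mean for cells and SCE. Both took probe sets at log2 9 or more in at least 1 single cell, whatever their level in the SCE. Where no SCE is detected, the share rests on values under the detection level. The remaining steps used numpy 2.4.6, scipy 1.17.1, pandas 2.3.3 and matplotlib 3.10.9 under Python 3.11.15. The limma comparison of SP with CD8, the spread test and the biological share were tried on simulated data. The simulated cells and SCE had equal means. The other limma comparisons were not tried in this way. Named genes are those called, the 10 with the smallest p in each comparison, those set by detection or share in single cells, and Ube2c, Ube2s and Ube2t. The rule also took the 10 genes with the highest mean in each group, which are not ranked because levels of different probe sets cannot be compared. Any other gene was picked with its values known. The gene families, lists, floor and detection level were chosen with earlier results of these data known. The alternatives were other floors, filters, detection levels, quantile normalization, all arrays with duplicate correlation, a replicate block, arrays without negative values, leaving out each sample, separate means for the share, any probe set of a gene and, added after seeing the data, the methods' t-test.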

Additional observations from a re-analysis of the deposited data

Results flagged for a closer look

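Among the 24 enzyme genes detected in at least 1 SCE, 6 had 1 SCE that stood apart from the other 4 by Dixon's criterion. Ube2e3, Ube2f and Usp3 were admitted only by the outlying value itself, so no chance rate for unselected groups applies. Among all 3139 probe sets detected in an SCE, 13.3% met the criterion, against 25% of these genes, a difference that was not tested. Ube2v1 was at 8.73 in SCE B against 12.51 to 12.73 in the others, and Ube2e1 at 7.84 in SCE B against 9.92 to 10.55. Ube2e3 ran the other way in the same aliquot, at 11.36 against 3.19 to 5.07. SCE A was high in Ube2f, at 12.96 against 4.54 to 6.65, and in Ube2s, at 10.56 against 8.82 to 9.15. Usp3 was at 11.54 in SCE E against 4.45 to 4.91.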

How the results depend on the processing

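Uba7 was called higher in SP cells under all 17 alternatives, with differences from 2.82 to 3.51 and adjusted p from 0.00148 to 0.0454. Ube2h was called in 14 of the 16 alternatives that tested it, with differences from -2.03 to -0.25. The 2 calls between SP and CD8 cells became 1 with a floor of log2 8 and with a filter on a mean level of 8, 5 with all arrays under duplicate correlation, 5 with the replicate block, and 8 on arrays without negative values, where LSP and USP have 1 sample each, assumed to vary like the CD8 samples. Leaving out a sample gave 2 or 3 calls (Usp38 without USP O, Ube2z without USP Z), and the methods' t-test after adjustment gave 2, or 4 at an unadjusted p under 0.05 (Ube2z and Usp38 as well). The array number in the labels marks a repeat of the same pool, so the replicate block pairs no animals; it and duplicate correlation added Ube2d2a, Ube2z and Usp3. Between LSP and USP cells the count of 0 became 7 on arrays without negative values, where the difference in Ube2a went to 0 from 0.55, and 0 to 1 when a sample was left out (Usp15 without LSP A, Uchl5 without LSP M). The counts of 0 for single cells against SCE, in mean and in spread, stayed at 0 under every alternative run. For spread this says little, since the number of assignments bounds the p-value from below. The number of genes with a share of 0.5 or more was 5 to 9, with 9 without SCE B, and the number detected in a cell 18 to 29; at a detection level of log2 10 no gene was detected in all 12 cells (0, with Ube2e1 lost). Over all probe sets, calls between SP and CD8 cells went from 193 higher and 205 lower to 1190 and 416 on arrays without negative values, and those between LSP and USP cells from 2 and 5 to 690 and 506. With no filter the former were 95 and 119. With all arrays they were 284 and 377 under duplicate correlation and 277 and 362 with the replicate block, and the latter 14 and 17, and 11 and 16. Causes of these shifts were not tested, apart from the smaller number of samples or genes that an alternative sets by its construction.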

Other observations

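Probe sets that were not kept held signal of their own in single samples. A second probe set of Ube2o was at 13.46 in single cell B and under the detection level in the other 11 cells and all SCE, while the kept set ran from 6.56 to 9.25 over the cells. The other probe sets of Usp3 were at 13.82 and 13.76 in single cell I, where the kept set was at 6.00, and the kept set was high instead in cells E and K, at 10.78 and 12.70. In the ten-cell samples a second probe set of Usp2 was at 10.03 in LSP sample B, at 9.11, 9.91 and 8.82 in the USP samples and at 7.93 in CD8 sample B, with the other 4 samples at the floor. A second probe set of Ube2k was at 8.38 to 8.82 in the LSP samples, at 8.21, 7.30 and 7 in the USP samples and at the floor in the CD8 samples, where the kept set reached 10.86 in CD8 sample B.

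Ube2f, the NEDD8 E2, was detected in single cell A at 12.43 and in SCE A at 12.96, and in no other single cell or SCE. Nedd8 itself was at 4.42 to 13.62 over the single cells and at 10.25 to 12.16 in the 9 ten-cell samples.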
